A study of Homo sapiens with 24 samples.

Results

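DKK1, a secreted inhibitor of Wnt signalling, was examined together with 9 other genes of the pathway: DKK3, LRP5, LRP6, WNT5A, AXIN2, LEF1, NKD1, RNF43 and CTNNB1. DKK1 was chosen from its higher counts after each of 3 reagents against SREBF1. The other genes were chosen by their role as Wnt ligand, receptor, relay or target, with earlier results of these data known. All 10 were matched by symbol to 1 gene identifier each, among 58735 genes in the files, and all 10 passed the filter on low counts that left 15123 genes for testing. Since DKK1 was chosen on its rise, its values in that comparison are a description, with no test.

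The cells were HT-144, an established melanoma line from a metastasis, transfected by the reverse method and kept for 3 days in medium with insulin, transferrin and selenium. The controls were Mock, siNegative (a scramble siRNA, 50 nM) and ASO-Neg (a negative control antisense oligonucleotide, or ASO, 5 nM). The libraries aimed at SREBF1, a transcription factor of lipid synthesis genes, were siSREBF1 (pooled siRNAs, 50 nM), ASO-SREBF1-S1 and ASO-SREBF1-S4 (2 ASOs, 5 nM each, S1 and S4 for short). Each group was 1 library of polyadenylated RNA sequenced over 4 lanes, so a difference between 2 groups has no replicate behind it, and all 6 came from 1 cell line.

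Wnt proteins bind Frizzled receptors together with the co-receptors LRP5 or LRP6. This stops a complex built around AXIN1 and APC from destroying β-catenin, the product of CTNNB1, which then joins LEF1 or another TCF family factor on target genes such as AXIN2, NKD1 and RNF43. DKK1 binds LRP5 and LRP6 and, with the KREMEN receptors, keeps them from taking part. In skin, DKK1 secreted by fibroblasts of the palms and soles is known to lower pigmentation, and WNT5A is known in melanoma for signalling that does not pass through β-catenin.

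Libraries held 12916478 to 47900277 gene counts, with ASO-SREBF1-S1 the deepest. SREBF1, the targeted gene, stood at 217.4 to 249.7 CPM (counts relative to library size, with edgeR's TMM scaling) in the controls and at 55.0 to 77.1 CPM in the 3 targeting libraries, which matched the labels. Of 8 melanoma markers all were tested, with MLANA the lowest at a mean of 15.9 CPM, and their summed level was 4802 to 6291 CPM in controls and 4131 to 5596 CPM in targeting libraries. All 5 immune markers, 5 of 6 keratinocyte markers and 2 of 4 endothelial markers had a mean below 1 CPM, and KRT1 was at 0. The exceptions were the keratinocyte marker KRT10 (24.4 CPM) and the endothelial markers KDR (40.8 CPM) and VWF (1.86 CPM). KRT10 and KDR thus stood above MLANA. The 8 fibroblast markers summed to 672.8 to 887.1 CPM in controls and 638.0 to 941.9 CPM in targeting libraries, nearly all of it COL1A2 and LUM, while THY1 stood at 0.118 CPM.

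DKK1 was low in the controls and higher in every library aimed at SREBF1, most of all with ASO-SREBF1-S1. It had 19 counts in Mock (1.49 CPM), 19 in siNegative (0.962 CPM) and 30 in ASO-Neg (1.77 CPM). It had 39 counts with the siRNA pool (2.91 CPM), 766 with S1 (15.9 CPM) and 108 with S4 (6.65 CPM). The 3 targeting libraries lay above the 3 controls, with the nearest pair siSREBF1 and ASO-Neg, whose 95% counting intervals overlapped (2.07 to 3.98 CPM and 1.19 to 2.52 CPM). Among all genes tested, 8.87% had the targeting libraries entirely above the controls. The means were 1.41 ± 0.409 CPM in controls and 8.48 ± 6.68 CPM in targeting libraries (SD, n = 3 each), a 6.03-fold ratio. The edgeR fit gave a log2 ratio of 2.69. Without ASO-SREBF1-S1 that log2 ratio was 1.805. The RNA was bulk, so more cells with DKK1 RNA and more DKK1 RNA per cell cannot be told apart.

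**Figure D1:**
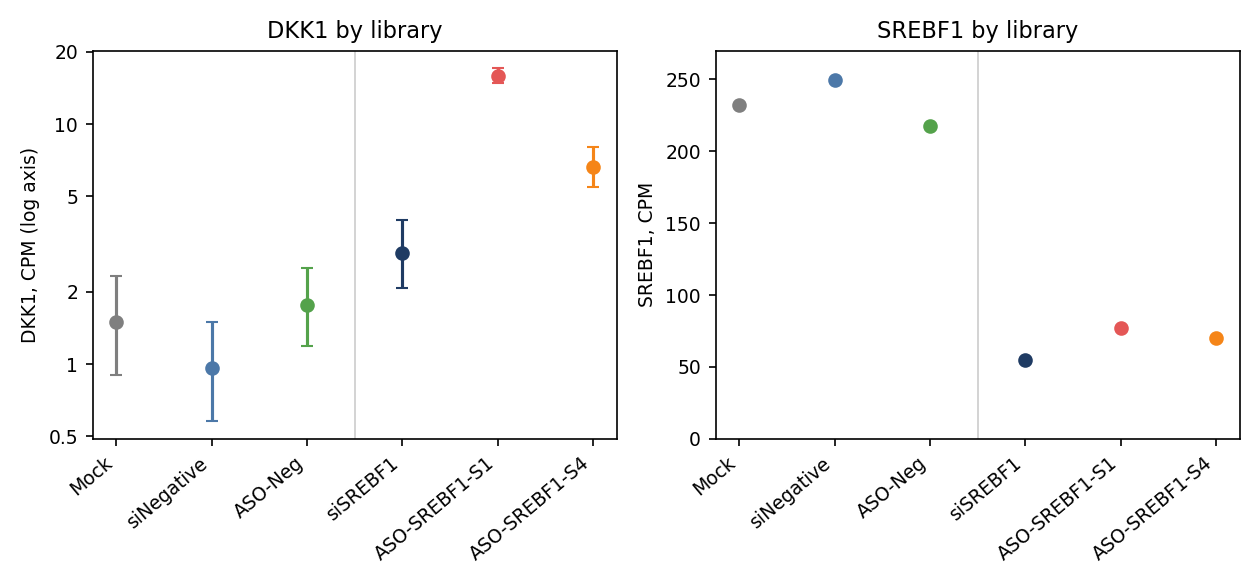
Level of DKK1 (left, CPM on a log axis, bars are 95% counting intervals) and of SREBF1 (right, CPM on a linear axis) in each of the 6 libraries, with the 3 controls left of the line. DKK1 ran from 0.962 to 1.77 CPM in controls and from 2.91 to 15.9 CPM in targeting libraries, while the 3 targeting libraries were close to each other for SREBF1, at 55.0 to 77.1 CPM.

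Against its own matched control, DKK1 was 3.02-fold higher with the siRNA pool (95% counting interval 1.71 to 5.54), 8.996-fold with ASO-SREBF1-S1 (6.25 to 13.4) and 3.76-fold with ASO-SREBF1-S4 (2.49 to 5.84). The last 2 share ASO-Neg as control. A size rule of at least 2-fold with 10 CPM in 1 of the 2 libraries was passed by ASO-SREBF1-S1 over ASO-Neg alone, as by 0.106% of genes tested in that direction and 0.317% in either, since DKK1 stayed under 10 CPM in the other pairs. The control reagents left DKK1 within counting error of Mock, with siNegative at 0.645 of it (0.323 to 1.29) and ASO-Neg at 1.18 times (0.645 to 2.23). Per lane, DKK1 had 183 to 201 counts with S1 and 25 to 30 with S4, but only 6 to 12 with the siRNA pool, 2 to 8 in Mock, 4 to 6 in siNegative and 4 to 12 in ASO-Neg.

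The 2 ASOs against SREBF1, S1 and S4, differed in DKK1. DKK1 was 2.39-fold higher with S1 than with S4 (95% counting interval 1.95 to 2.95), past the size rule as were 0.198% of genes tested in that direction and 0.714% in either. SREBF1 was at 77.1 CPM with S1, 70.4 with S4 and 55.0 with the siRNA pool, the same order as for DKK1. Each value is from 1 library, and a relation between the levels of the 2 genes was not tested. The siRNA pool lay below both ASOs for DKK1, at a log2 ratio of -1.998 to the pair, given without a test since DKK1 was chosen on these libraries. The siRNA dose differed from that of the ASOs.

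DKK1 (ENSG00000107984) lies on the forward strand of GRCh38 chromosome 10, 52314281 to 52318042, and its first base is 1 base after the window below. The sequence shown is the 250 bases before that start site, chr10:52314031-52314280 on the forward strand, from RefSeq on GRCh38.p14, because DKK1 is the gene on which the values above turn. Capitals mark the letters that matched a motif searched on both strands.

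DKK1 promoter: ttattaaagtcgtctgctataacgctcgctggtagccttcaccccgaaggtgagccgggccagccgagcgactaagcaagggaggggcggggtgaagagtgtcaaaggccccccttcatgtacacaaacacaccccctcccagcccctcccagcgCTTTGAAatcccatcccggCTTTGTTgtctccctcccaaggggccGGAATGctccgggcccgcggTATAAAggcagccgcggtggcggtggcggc

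The window was 62.8% G or C. Its TATA box letters, TATAAA, stood 30 to 25 bases before the start, and 11.1% of 27305 promoter windows of this length held them on either strand. The TEAD motif CATTCC was found on the reverse strand 50 to 45 bases before the start, as in 11.9% of windows. A TCF/LEF motif, counted as CTTTGAA or CTTTGAT and also as CTTTGTA or CTTTGTT, was found at 2 places, 95 to 89 and 76 to 70 bases before the start, and 12.1% of windows held at least 1. The letters TCACNCCAC of the sterol element bound by SREBP factors (0.875% of windows), TGANTCA of AP-1 (6.60%) and GGGNNTTCC of NF-kB (5.81%) were not in this window. A match describes letters and not a bound site.

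Few genes around DKK1 were expressed. PRKG1, a protein kinase gene that ends 15858 bases before DKK1 on the same strand, was the only one tested within 500 kb. It stood at 2.90, 3.14 and 2.12 CPM in Mock, siNegative and ASO-Neg and at 2.09, 2.07 and 1.54 CPM with the siRNA pool, S1 and S4. PRKG1-AS1, which overlaps DKK1 on the opposite strand, had at most 4 counts in a library. PRKG1 had 25 to 100 counts per library, and its lowest value was with S4. The other 4 genes within that distance, RPL31P44, THAP12P3, LNCAROD and MBL2, had 0 to 8 counts per library.

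DKK3, a divergent relative of DKK1 that does not block LRP5 or LRP6 in the same way, stood within a narrow range. It stood at 32.5, 38.4 and 31.0 CPM in Mock, siNegative and ASO-Neg and at 32.5, 36.3 and 39.1 CPM with the siRNA pool, S1 and S4. The groups overlapped, with a difference of 0.08 in log2 units (SE 0.11, edgeR adjusted p = 0.833). Its log2 ratio was -0.24 in siSREBF1 over siNegative (95% counting interval -0.42 to -0.07), so the siRNA pool was the lower of the pair. It was 0.23 in ASO-SREBF1-S1 over ASO-Neg (0.09 to 0.37) and 0.33 in ASO-SREBF1-S4 over ASO-Neg (0.17 to 0.51). DKK3 (ENSG00000050165) lies on the reverse strand of chromosome 11, 11956207 to 12009769, and USP47 overlaps it on the opposite strand. Of the other secreted inhibitors, DKK4 and SOST had no count in any library and DKK2, SFRP2, FRZB and WIF1 were too low to test. SFRP1, which binds Wnt proteins, was abundant at 570.4 to 1038 CPM, lowest with ASO-SREBF1-S1 and highest with siSREBF1.

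WNT5A was the most abundant Wnt ligand per length, at 6.57 to 11.6 CPM per kb of exon, followed by WNT10B with a mean of 2.92. Of the 19 ligand genes 7 were tested and 3 had no count. WNT5A stood at 51.6 CPM in Mock, 82.8 in siNegative, 67.5 in ASO-Neg, 78.1 with the siRNA pool, 47.0 with S1 and 72.3 with S4. Mock and ASO-SREBF1-S1 were the low libraries, so the groups overlapped (log2 ratio -0.05, SE 0.21, edgeR adjusted p = 0.958). Its log2 ratio was -0.52 in ASO-SREBF1-S1 over ASO-Neg (95% counting interval -0.62 to -0.42) and 0.68 in siNegative over Mock (0.55 to 0.81). WNT5A thus differed more between siNegative and Mock than between any SREBF1 reagent and its matched control. WNT5A (ENSG00000114251) lies on the reverse strand of chromosome 3, 55465715 to 55490539. The sign of its pooled log2 ratio turned without siNegative (0.12) and without ASO-SREBF1-S1 (0.15).

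The co-receptors that DKK1 binds were expressed in all libraries, and neither passed the test. LRP6 (chromosome 12, 12116025 to 12267044, reverse strand) stood at 91.2, 97.3 and 102.5 CPM in Mock, siNegative and ASO-Neg and at 92.5, 93.7 and 99.0 CPM with the siRNA pool, S1 and S4. It varied least of the 10 genes, with a highest to lowest ratio of 1.12 (log2 ratio -0.03, SE 0.07, edgeR adjusted p = 0.913). LRP5 (chromosome 11, 68312591 to 68449275, forward strand) stood at 81.6, 83.2 and 72.7 CPM in Mock, siNegative and ASO-Neg and at 72.6, 60.7 and 75.6 CPM with the siRNA pool, S1 and S4. ASO-SREBF1-S1 was the lowest library, and the groups overlapped (log2 ratio -0.19, SE 0.10, edgeR adjusted p = 0.553). RNF43 (chromosome 17, 58353676 to 58417595, reverse strand) encodes a ubiquitin ligase that removes Frizzled from the cell surface. It stood at 4.55, 4.96 and 4.42 CPM in Mock, siNegative and ASO-Neg and at 3.81, 3.19 and 4.74 CPM with the siRNA pool, S1 and S4. ASO-SREBF1-S1 was again lowest, and ASO-SREBF1-S4 lay inside the range of the controls (log2 ratio -0.28, SE 0.18, edgeR adjusted p = 0.652). CKAP4, another receptor for DKK1, stood at 215.2 to 271.0 CPM.

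KREMEN1, which encodes a receptor that acts with DKK1 on LRP5 and LRP6, was low in 1 library. It stood at 98.9 CPM in Mock, 102.9 in siNegative, 97.4 in ASO-Neg, 105.4 with the siRNA pool, 45.8 with S1 and 88.4 with S4. The library with the most DKK1 thus had the least KREMEN1, at 0.470 of ASO-Neg (95% counting interval 0.441 to 0.501), past the size rule as were 0.212% of genes tested in that direction. The 3 targeting against 3 control libraries gave a difference of -0.34 in log2 units (SE 0.24, edgeR adjusted p = 0.676). The other 2 targeting libraries were nearer the controls, S4 below all 3 of them and the siRNA pool above all 3. KREMEN2 ranged from 13.1 to 21.97 CPM, with ASO-Neg lowest and Mock highest. PKMYT1 overlaps KREMEN2 on the opposite strand. Counted without regard to strand, KREMEN2 had 0.785 of the reverse-strand counts used here, so its level depends on how strand is handled.

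CTNNB1, the gene of β-catenin, was by far the most abundant of the 10, at 109.5 to 146.1 CPM per kb of exon. It lies on the forward strand of chromosome 3, 41194741 to 41260096, with ULK4 overlapping on the opposite strand. It stood at 1718, 1495 and 1532 CPM in Mock, siNegative and ASO-Neg and at 1287, 1554 and 1536 CPM with the siRNA pool, S1 and S4. The siRNA pool was the lowest library and Mock the highest, and the groups overlapped (log2 ratio -0.12, SE 0.10, edgeR adjusted p = 0.729). LEF1 (chromosome 4, 108047545 to 108168956, reverse strand), a DNA-binding partner of β-catenin, stood at 83.7, 92.2 and 87.5 CPM in Mock, siNegative and ASO-Neg and at 101.7, 72.95 and 83.1 CPM with the siRNA pool, S1 and S4. The targeting libraries held both its highest and its lowest value (log2 ratio -0.04, SE 0.11, edgeR adjusted p = 0.938). siSREBF1 over the ASO pair gave LEF1 a log2 ratio of 0.38 (SE 0.11) that did not pass (edgeR adjusted p = 0.344), in a fit that called 0.147% of 16297 genes. The siRNA arm there is 1 library, assumed to vary like the others.

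AXIN2, a scaffold of the destruction complex and a widely used readout of β-catenin signalling, lies on the reverse strand of chromosome 17, 65528563 to 65561648. It stood at 3.61, 4.51 and 3.88 CPM in Mock, siNegative and ASO-Neg and at 3.58, 3.71 and 4.25 CPM with the siRNA pool, S1 and S4. It had 46 to 179 counts per library and a difference of -0.07 in log2 units (SE 0.16, edgeR adjusted p = 0.919). NKD1 (chromosome 16, 50548396 to 50649249, forward strand) is a feedback inhibitor that binds Dishevelled. It stood at 10.8, 11.7 and 12.9 CPM in Mock, siNegative and ASO-Neg and at 9.93, 11.1 and 12.2 CPM with the siRNA pool, S1 and S4 (log2 ratio -0.09, SE 0.12, edgeR adjusted p = 0.845). The groups overlapped for both genes, and in ASO-SREBF1-S1, where DKK1 was highest, AXIN2 had 3.71 CPM and NKD1 11.1 CPM, inside the range of the controls. The other tested feedback and target genes were not all inside it in that library. LEF1, RNF43, TCF7, TNFRSF19, APCDD1 and ZNRF3 lay below all 3 controls, ZNRF3 only just (14.08 against 14.19 CPM in ASO-Neg). NOTUM lay inside the range and NKD2 above it. The share of all genes below the controls in that library was not counted. At these depths AXIN2 had a 95% counting interval for ASO-SREBF1-S1 over ASO-Neg of -0.48 to 0.36 on the log2 scale. A change inside that interval cannot be told from counting error. The spread between cultures is not part of it, so a larger change would not be certain either.

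**Figure D2:**
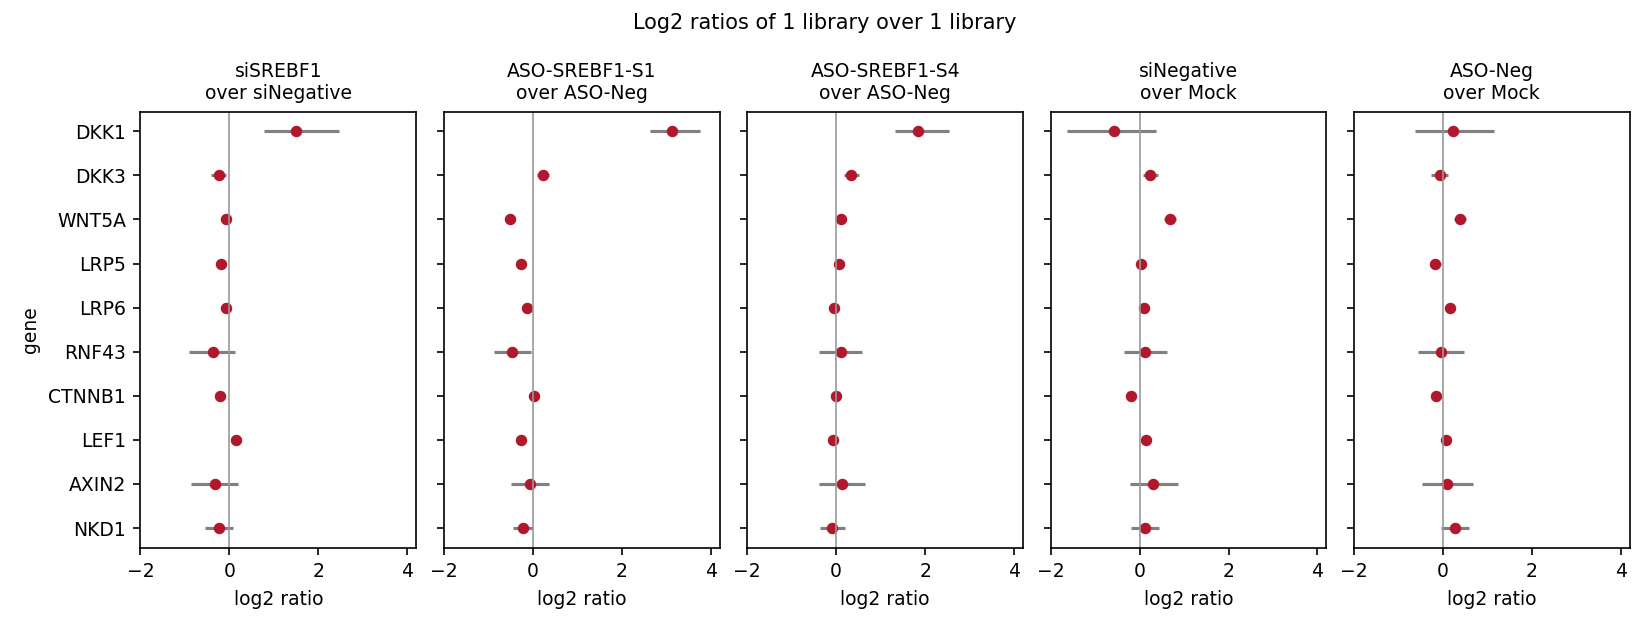
Log2 ratio of 1 library over another for the 10 genes (points) with 95% counting intervals (lines), in 3 contrasts of a SREBF1 reagent with its matched control and 2 of a control reagent with Mock. DKK1 alone lay beyond 1 on the log2 scale, at 1.49, 3.13 and 1.84 in the first 3 panels, and the 9 other genes stayed between -0.52 and 0.68.

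None of the 9 other genes passed edgeR's test of targeting against control libraries, where 0.0595% of 15123 genes did (0.0198% higher and 0.0397% lower). None had an unadjusted p under 0.05 in edgeR, where 10.2% of all genes tested had one, or in the DESeq2 Wald test, where 1265 genes did. With 9 genes, neither 0 sets them apart from all genes. Of the 9, 8 had a log2 ratio below 0 and 1 above, from -0.28 to 0.08, with a median of -0.07 against 0.01 over all genes tested. In single-library contrasts 0 of the 9 reached a 2-fold difference, so none passed the size rule, which also asks for 10 CPM. That rule was passed by 0.331% of genes tested for siSREBF1 over siNegative. Over ASO-Neg it was passed by 0.317% with S1 and by 0.456% with S4. The control reagents gave 0.00661% for siNegative over Mock and 0.0595% for ASO-Neg over Mock. With shares this small, 0 of 9 under the size rule does not set these genes apart from all genes. The share of all genes with a 2-fold difference at any level was not counted. A counting interval that left out 0 was found for 4 of the 9 with siSREBF1 over siNegative (31% of all genes tested), 7 with S1 over ASO-Neg (36.3%) and 1 with S4 over ASO-Neg (35.8%). It was also found for 4 of the 9 with siNegative over Mock (18.7%) and 4 with ASO-Neg over Mock (22.9%). Such intervals cover counting error only, and they are narrower in genes with more counts and in deeper libraries, of which S1 is the deepest. The p-values measure the spread between 3 different treatments on each side, and nothing in the labels says that the libraries came from separate cultures of 1 treatment.

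Set against each other per length, the 10 genes spanned a wide range. Means over the 6 libraries, in CPM per kb of exon, were 129.3 for CTNNB1, 16.2 for LEF1, 12.0 for LRP5, 9.30 for WNT5A and 9.26 for LRP6. They were 2.92 for DKK3, 2.23 for DKK1, 0.755 for AXIN2, 0.676 for RNF43 and 0.659 for NKD1. LRP5 and WNT5A overlapped over the libraries, as did WNT5A and LRP6, DKK3 and DKK1, DKK1 and AXIN2, and AXIN2, RNF43 and NKD1. CTNNB1, LEF1 and LRP5 did not overlap one another, nor did LRP6 and DKK3. DKK1 changed place: per length it stood at 0.671 in Mock beside AXIN2 at 0.695, and at 7.15 in ASO-SREBF1-S1 above DKK3 at 3.03 and WNT5A at 6.57.

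**Figure D3:**
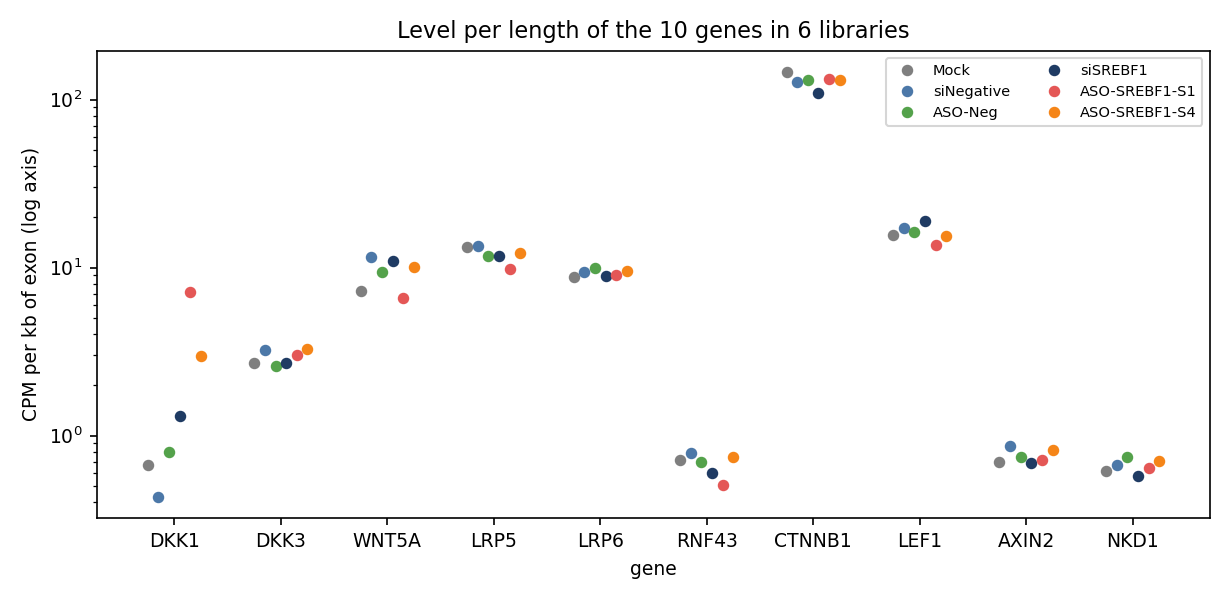
Level per length of the 10 genes, in CPM per kb of exon on a log axis, with 1 point per library coloured as in the legend. DKK1 spread from 0.433 to 7.15, a ratio of 16.5 between its highest and lowest library, and the other 9 genes had such ratios between 1.12 and 1.76.

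Across a wider set of 99 Wnt pathway genes, 70 were tested, and none but DKK1 had a 2-fold ratio of targeting to control libraries. Such a ratio was rare, in 107 of all 15123 genes tested, so its absence does not set the Wnt genes apart. Leaving DKK1 out, 0 of 69 rose and 0 fell past an adjusted p of 0.05 in edgeR, where 0.0595% of all genes tested passed. The DESeq2 Wald test called 0 as well. At an unadjusted p under 0.05 there were 4 of 69, where 10.2% of all genes had one. The median log2 ratio of the 69 was -0.03, with 31 above 0 and 38 below, and all lay between -0.80 and 0.65. For 9 of them, or 13.0%, the targeting and control libraries did not overlap, 5 higher and 4 lower, against 17.4% of all genes (8.87% higher and 8.52% lower).

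By role, 18 receptors and DKK1-binding proteins had a median of -0.08, with 5 above 0 and 13 below, 19 relay and destruction complex genes -0.02, 13 nuclear factors 0.01 and 4 genes of R-spondin signalling and receptor turnover -0.11. The 10 feedback and target genes other than DKK1 had a median of -0.08, with 2 above 0 and 8 below. Ligands had a median of 0.22 over 7 genes. No gene of these groups passed the test.

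**Figure D4:**
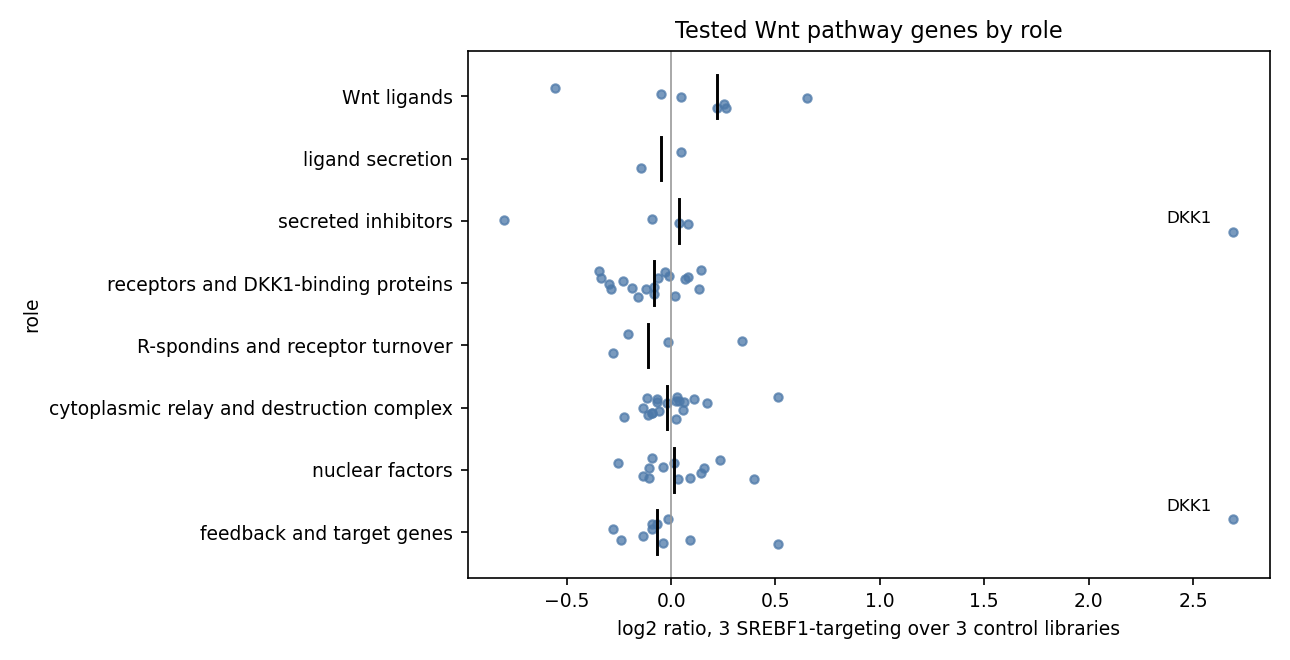
Log2 ratio of the 3 SREBF1-targeting over the 3 control libraries for 70 tested Wnt pathway genes, 1 point per gene and role (vertical position within a row is random, black bars are medians with DKK1 included, and a gene with 2 roles appears in both rows). DKK1 stood at 2.69, and the others lay between -0.80 and 0.65.

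The 4 genes with an unadjusted p under 0.05 were PYGO1, TLE4, TLE3 and FZD2, none of which passed after adjustment. PYGO1, a co-activator that reaches β-catenin through BCL9, had 47.1, 44.7 and 46.7 CPM in Mock, siNegative and ASO-Neg and 39.0, 37.9 and 39.1 CPM with the siRNA pool, S1 and S4 (log2 ratio -0.25, SE 0.07, edgeR adjusted p = 0.262). The groups did not overlap. TLE3 and TLE4, co-repressors of TCF factors, were higher in the targeting libraries without overlap: TLE4 stood at 23.7 to 25.8 CPM in controls and 26.3 to 39.1 CPM in targeting libraries, and TLE3 at 30.1 to 31.8 and 33.7 to 39.9 CPM. The receptor FZD2 stood at 8.71 to 10.5 CPM in controls and 7.01 to 7.88 CPM in targeting libraries. NKD2, WNT3 and FZD3 were also higher without overlap, and PORCN, which attaches lipid to Wnt proteins, and FZD6 lower, with log2 ratios from -0.14 to 0.51 and edgeR adjusted p values from 0.566 to 0.676.

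Between the siRNA pool and the ASO pair 0 of 73 Wnt genes other than DKK1 passed in edgeR or in the DESeq2 Wald test. Few genes passed at all, 0.147% of 16297 in edgeR and 121 genes in DESeq2, so this does not set the Wnt genes apart. In edgeR 10 of the 73 had an unadjusted p under 0.05, where 8.71% of all genes had one.

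Of 129 tested genes that varied between libraries (a mean of at least 5 CPM and an SD of at least 0.5 on the log2 scale), the 5 whose log2 CPM followed DKK1 most closely over the 6 libraries were DEPDC7 (Pearson r = 0.988), ADM2, a peptide hormone of the adrenomedullin family (0.983), CCN1, a matricellular protein (0.960), THBS1, which encodes thrombospondin 1 (0.945), and EGR1, an immediate early transcription factor (0.910). These values describe 6 points that share their libraries, and DKK1's own pattern was the reason for looking. DEPDC7 stood at 19.7 to 26.0 CPM in controls, 26.3 with the siRNA pool, 59.2 with S1 and 38.5 with S4. THBS1 stood at 44.03 to 69.8 CPM in controls, 68.7 with the siRNA pool, 162.8 with S1 and 108.8 with S4. For all 5, as for DKK1, ASO-SREBF1-S1 was the highest library and ASO-SREBF1-S4 the next. None of the 5 was among the 99 Wnt genes. The rule on level and spread had already left those genes out, so this says nothing about the pathway.

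**Figure D5:**
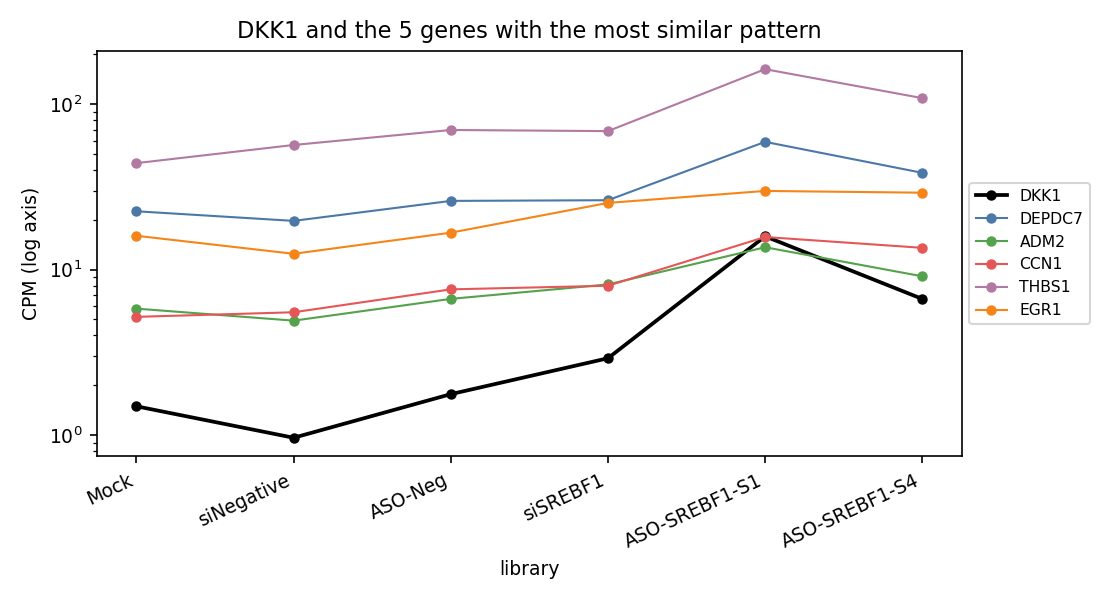
Level of DKK1 (black) and of DEPDC7, ADM2, CCN1, THBS1 and EGR1 in the 6 libraries, in CPM on a log axis, with lines joining the values of 1 gene. All 6 genes were highest in ASO-SREBF1-S1, where DKK1 stood at 15.9 CPM and THBS1 at 162.8 CPM.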

How the data were processed

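The authors deposited whole-number read counts per gene, 1 file for each of 4 lanes of 6 libraries. Reads of 75 bp in pairs from a directional kit were aligned with STAR 2.6.1a to GRCh38, and FastQC was used, per the submitters' processing notes and the labels' protocols. The annotation is not given in the sources used here. The 4 summary lines that name no gene (18.2% to 19.4% of read pairs) were left out. Reverse-strand counts were used, since the other strand held 6.47% to 7.79% of both.

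The chi-square statistic per degree of freedom was 1.02 to 1.05 over the lanes of a library and 2.03 to 8.69 between libraries, so lanes were summed to 1 library per group. Of 58735 identifiers, 58207 matched GENCODE release 44, which gave symbols, coordinates and exon lengths (the union of all annotated exons, which lowers the level per kb of genes with many isoforms). RefSeq promoters were found for 6 of the 10 genes, and only that of DKK1 is printed.

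Tests used edgeR 4.0.16 in R 4.3.3 (TMM, filterByExpr, 2-sided quasi-likelihood F test, Benjamini-Hochberg over all genes tested at 0.05), checked on simulated data. DESeq2 1.42.0 was an alternative. The 3 SREBF1-targeting libraries were set against the 3 controls, and in a fit with 3 classes siSREBF1 against the ASO pair. Single-library contrasts compare log2 CPM (TMM-scaled, prior count 2), without a p-value. Folds and 95% exact (Clopper-Pearson) intervals carry no prior and cover counting error only, and those of single counts are exact Poisson intervals. A count of 3 was worth 0.0626 to 0.232 CPM.

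The named genes were SREBF1, the 10 members, Wnt genes with a mean of at least 1 CPM that passed a test, did not overlap between sides or passed the size rule, and the 5 genes most like DKK1 (log2 of CPM plus 0.25). Others are named for their role. The members and lists were chosen with earlier results of these data known.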

Additional observations from a re-analysis of the deposited data

How the results depend on the processing

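The number of genes called depended on the settings. The 9 genes called between targeting and control libraries became 509 without the filter and 164 in DESeq2. When 1 library was left out, they became 1 (without Mock or ASO-Neg) to 103 (without ASO-SREBF1-S1). An edgeR fit with reagent chemistry as a term, which also left out Mock, called 0 (834 at an unadjusted p under 0.05). The effects of the term and of leaving out Mock are not separated there. The 24 between siSREBF1 and the ASO pair became 380 without the filter, 121 in DESeq2 and 2 to 3 without a control. Leaving out an ASO there was not run, and would leave 1 library on each side. Without the filter, 2 of 92 Wnt genes other than DKK1 (TLE4 and KREMEN1, 2.17% against 1.62% of 31378 genes) and 4 of 92 (CTNNBIP1, GSK3B, FZD8 and KREMEN1, 4.35% against 1.21%) were called in these comparisons, and 0 under every other setting run.

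DKK1 stayed higher in the targeting libraries in each fit, with a log2 ratio of 1.805 (without ASO-SREBF1-S1) to 3.07 (without siSREBF1). It was chosen on its rise with all 3 reagents, so leaving out 1 library could not turn that sign. For siSREBF1 over the ASO pair the log2 ratio of DKK1 was -2.01 without the filter and -1.97 in DESeq2, against -1.998. Its lowest single-lane ratios on the log2 scale were 0.814 for siSREBF1 over siNegative and 2.46 (S1) and 1.11 (S4) over ASO-Neg, where the controls had 4 to 12 counts a lane. Signs turned when 1 library was left out for LRP6 (-0.0783 to 0.0101), WNT5A (-0.21 to 0.15), AXIN2 (-0.1377 to 0.0263) and LEF1 (-0.173 to 0.0708). Under alternatives chosen after seeing the data, KREMEN1 stayed lower in ASO-SREBF1-S1 over ASO-Neg, at -1.163 to -1.037 on the log2 scale. The cause of the shifts in sign was not tested. No paired analysis was possible because the replicate numbers are lanes of 1 library. In 4 of the 6 libraries DKK1 had the fewest counts of the 10 genes, 19 to 39.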
